A study of Mus musculus with 24 samples.

Results

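The lymphoid and homeostatic chemokine system was described from 10 genes, chosen by symbol and matched to their Ensembl identifiers among 41388 mouse genes in the deposited count table. They are 6 ligands, Cxcl13, Ccl19, Ccl21a, Cxcl12, Cxcl14 and Cx3cl1, and 4 receptors, Cxcr5, Ccr7, Cxcr4 and Ackr3. All 10 were found in the table, and their positions are given in GRCm38. Transcripts were counted in a piece of myocardium from each of 24 male BALB/cAnNCrl mice in a study of experimental autoimmune myocarditis (EAM). Of these, 4 EAM and 4 control mice were taken on each of D10, D15 and D21, that is, days 10, 15 and 21 from the first immunization. Total counts per heart lay between 15814863 and 24980864, and 6 cardiomyocyte genes, the markers of the labelled tissue, summed to 6739.8 to 30992 reads per 1e6 in every heart.

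EAM mice received a peptide of the cardiac myosin heavy chain alpha (MyHC-α) in supplemented complete Freund's adjuvant on day 0 and day 7. Control mice received PBS in the same adjuvant on the same days. Both groups also received pertussis toxin on day 0, so adjuvant and toxin were common to all 24 mice, which were wild-type and 8 to 10 weeks old at immunization. Where possible, inflamed hearts were preferred for sequencing, so EAM hearts may not be a random draw of immunized mice. The sample names carry 1 library code for 20 libraries and another for the 4 D21 EAM libraries, so at D21 the library code and EAM cannot be told apart.

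Chemokines of this group guide lymphocytes and dendritic cells through lymphoid tissue at rest. Cxcl13 attracts B cells and follicular helper T cells through Cxcr5, and Ccl19 and Ccl21 attract naive and central memory T cells and mature dendritic cells through Ccr7. Cxcl12 signals through Cxcr4 and is taken up by the scavenging receptor Ackr3, Cxcl14 is made constitutively by many epithelia and stromal cells, and Cx3cl1 is a membrane-bound chemokine of endothelium that is shed by metalloproteinases and read by Cx3cr1.

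At D15, Cxcl13 rose 30.7-fold and Ccr7 31.0-fold in EAM hearts, Cxcl14 rose 3.50-fold, Cxcr4 2.70-fold and Cxcr5 2.36-fold. Cxcl12 was 1.71-fold higher and Ackr3 was at 0.590 of its control level, both past a false discovery rate (FDR) of 0.01 and short of a 2-fold change. Cx3cl1 stood at 1.14-fold and did not pass the test. Ccl21a had at most 2 counted reads in a heart, and counted reads of Ccl19 were found in few hearts, all of them EAM. Reads that map to more than 1 place were set aside by the study, so the counts of both understate their transcripts.

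Sequences bear on how far 2 of the ligands can be counted. Ccl19 and Ccl21a lie in a duplicated region of chromosome 4, and of all 75-base words in their transcripts, the length of 1 read, 45.3% and 61.3% also occur in transcripts of other genes. Ccl21a (chr4:42772860-42773993, minus strand) shares such words with 4 genes, Ccl21b, Gm10591, Gm13304 and Gm21541. Over its 402 bases, the Gm10591 transcript was 99.5% identical to that of Ccl21a, with the 2 substitutions T159A and C269T, counted from 1 at the 5′ end of the Ccl21a transcript, and the same 2 separate Ccl21a from Ccl21b. The windows around these bases are shown because only reads that cover a capital letter can tell Ccl21a from Gm10591 within these 402 bases. The letters do not separate the copies from each other, since Ccl21b, Gm13304 and Gm21541 carry the same ones as Gm10591.

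Ccl21a, positions 139 to 179: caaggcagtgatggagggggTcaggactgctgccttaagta
Gm10591, same window: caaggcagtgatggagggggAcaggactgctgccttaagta
Ccl21a, positions 249 to 289: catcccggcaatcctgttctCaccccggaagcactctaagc
Gm10591, same window: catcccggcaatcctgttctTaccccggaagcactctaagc

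Ccl19 (chr4:42754525-42756577, minus strand) shares words with Gm2564, Gm12407, Ccl19-ps1 and Ccl19-ps3. The 324 bases of Ccl19-ps3 were identical to Ccl19 at every position, so a read inside them cannot be assigned by its sequence. Since the study counted only reads that mapped to 1 place, counts of Ccl19, Ccl21a and their copies are uncertain and biased low. Of the other 8 members, 7 shared no 75-base word with another gene, and Cxcr5 shared 1.11% of its words with Bcl9l.

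Promoters were read from RefSeq for GRCm38.p6 as the 250 bases before and 50 after the start of each gene, with 8 of the 10 members matched. TATAAA or its reverse complement was found in Cxcl13, Cxcr4, Ackr3 and Cx3cl1, and in 13.6% of all 32851 promoters of that length. The core of an interferon response element, GAAA followed after any 2 bases by GAAA, was found on either strand in Ccl19 and Cxcl14 and in 3.44% of all promoters. TTCNNNGAA, the palindrome bound by STAT factors, was found in Cxcl14 and in 8.30% of all promoters. An NF-κB core (GGG, any 3 bases, TTCC), the AP-1 site TGANTCA and the E-box CACGTG were found on either strand in none of the 8, against 5.56%, 7.81% and 7.15% of all promoters. Windows with a match are shown, with the matched letters in capitals, for 4 members past the FDR limit at D15 and for Ccl19, whose counts allowed no test. A match is a description of letters only.

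Cxcl13, chr5:95956869-95956938, plus strand: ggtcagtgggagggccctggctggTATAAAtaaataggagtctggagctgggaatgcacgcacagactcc
Cxcl14, chr13:56296702-56296751, minus strand: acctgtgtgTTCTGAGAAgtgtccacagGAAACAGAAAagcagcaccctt
Cxcr4, chr1:128592300-128592359, minus strand: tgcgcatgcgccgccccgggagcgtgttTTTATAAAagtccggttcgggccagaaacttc
Ackr3, chr1:90203920-90203979, plus strand: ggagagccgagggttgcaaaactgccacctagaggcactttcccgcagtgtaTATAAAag
Ccl19, chr4:42756546-42756585, minus strand: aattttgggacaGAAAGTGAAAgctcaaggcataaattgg

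In Cxcr4, TATAAA and its reverse complement overlap in 1 run of capitals.

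Levels of the 10 genes differed widely in control hearts. Levels between genes are given per kilobase of exon in the GENCODE M21 annotation of GRCm38, as CPM (reads of a gene per 1e6 reads of the library, after TMM scaling) divided by exon length, over 12 control hearts. Cxcl12 was highest at 38.4 ± 4.34 CPM per kb (SD, n = 12), followed by Ackr3 at 32.2 ± 3.86 and Cxcl14 at 23.9 ± 9.62, and the ranges of these 3 overlapped. Cxcr4 followed at 10.6 ± 1.67, Cx3cl1 at 5.11 ± 0.521 and Cxcl13 at 1.61 ± 0.782, with no overlap between these neighbours. Cxcr5 (0.263 ± 0.0902), whose highest hearts reached the lowest of Cxcl13, and Ccr7 (0.169 ± 0.104) overlapped each other at the foot of the detected genes. Ccl21a had 5 reads in the 12 hearts together and Ccl19 had 0, which allows up to 3 reads per library, or 0.120 to 0.190 CPM.

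In D15 EAM hearts the order was different. Cxcl14 (63.6 ± 8.32 CPM per kb, SD, n = 4) and Cxcl12 (60.8 ± 12.3) stood at the top with overlapping ranges, and Cxcl13 followed at 44.1 ± 11.3, its range overlapping that of Cxcl12. Cxcr4 at 26.1 ± 9.82 stood above Ackr3 at 17.8 ± 3.18, the reverse of the order in control hearts, although the ranges of the 2 receptors overlapped. Cx3cl1 at 5.81 ± 1.46, Ccr7 at 3.03 ± 0.662 and Cxcr5 at 0.506 ± 0.132 followed, and the range of Ccl19, from 0 to 2.64, took in that of Cxcr5 and reached that of Ccr7.

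**Figure D1:**
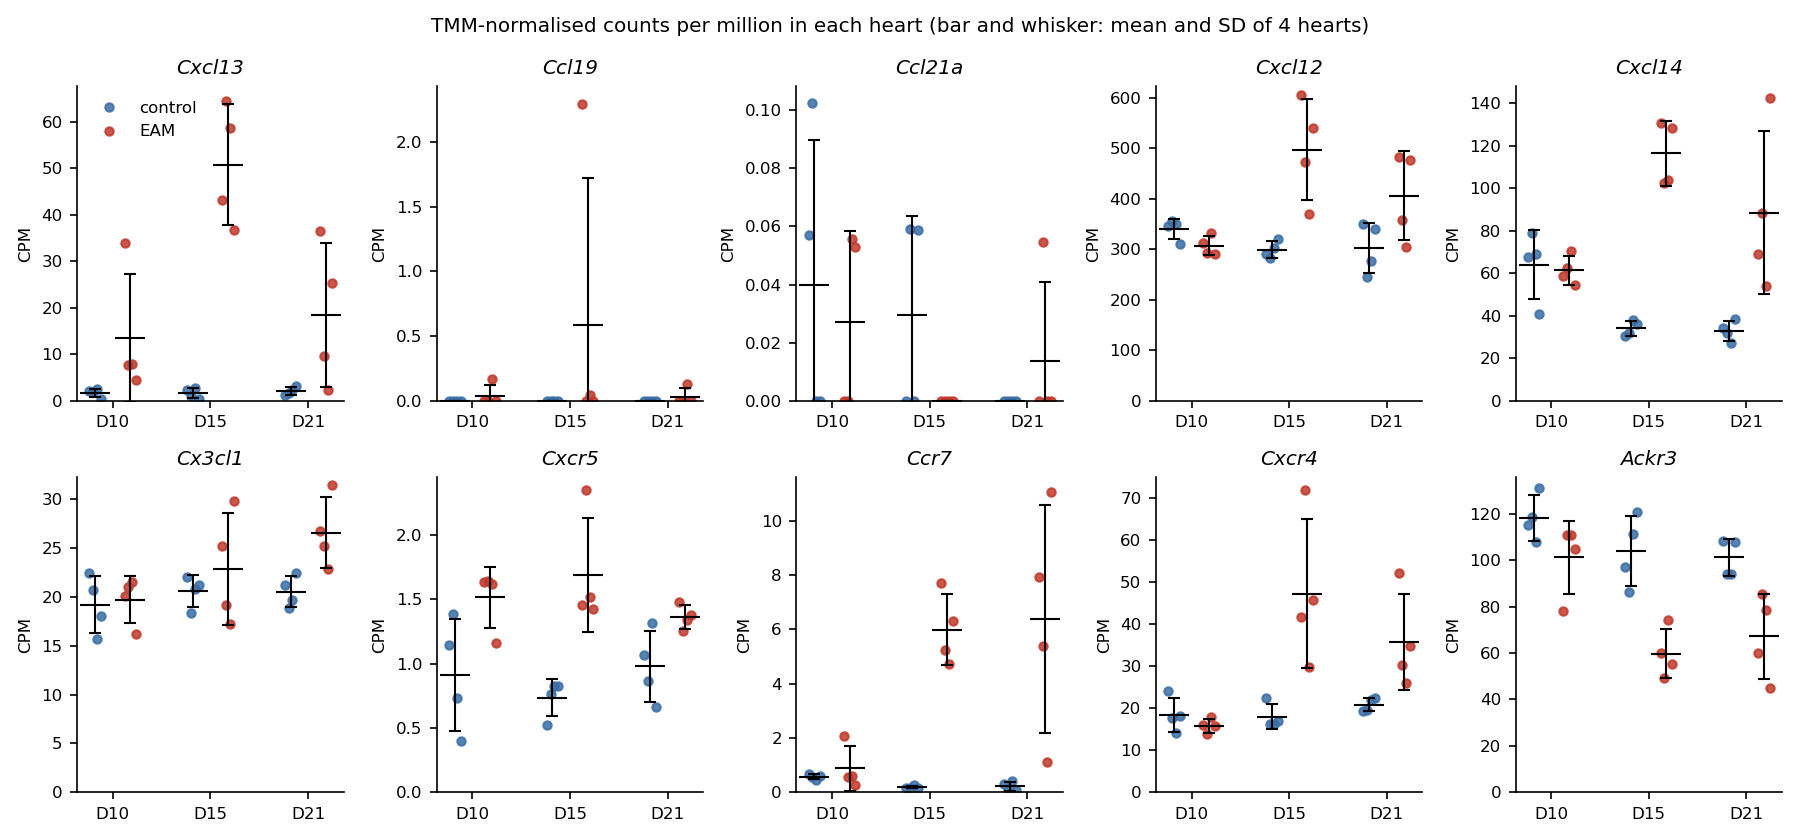
TMM-normalised CPM (linear axes from 0, a scale for each gene) in each of 24 hearts by day, with control hearts in blue and EAM hearts in red, and the mean and SD of 4 hearts in black. Cxcl13 reached 36.6 to 64.4 CPM in D15 EAM hearts against at most 2.69 in D15 controls, while Cx3cl1 overlapped between the groups at D10 and D15.

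EAM and control hearts were compared at each day with edgeR's quasi-likelihood test on the counts, and a gene was called induced or repressed at a Benjamini-Hochberg FDR under 0.01 with at least a 2-fold change. Genes needed at least 10 reads in at least 4 of the 8 hearts of a day. Of the 10 members 8 passed at each day, and Ccl19 and Ccl21a at none. Ccr7 passed at D15 through its EAM hearts alone, since no control heart of that day reached 10 reads. At D21 only control replicate 3 reached that number, with 10 reads. Among EAM hearts, D10 replicate 1, D15 replicate 2 and D21 replicate 3 stood apart in sums of immune cell markers, and several results are given with and without them. D15 EAM replicate 3 stood apart too, with 2767 CPM of 8 monocyte and macrophage genes against 3472 to 3946 in the other 3 hearts and 17322 CPM of 6 cardiomyocyte genes against 6739.8 to 10496. It held the lowest Cxcl12, Cxcr4 and Ccr7 and the highest Ackr3 of its group, and without it the 5 members called at D15 were again called. The rise of the EAM effect on Cxcl12 from D10 to D15 was then 1.002 and was called. In bulk RNA, fewer cells of a type and less RNA per cell cannot be told apart.

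At D10, 0 of the 8 tested members were called, as were 0% of 15029 genes in either direction, while 2292 genes had an unadjusted p under 0.05. At D15, 5 of the 8 were called induced, where 18.1% of 15693 genes were induced, and none was repressed, where 12.9% were. Ccr7, which passed the filter through EAM hearts alone, is among the 5. The members were chosen with earlier results of these data known, so the shares are a description and no test. With Cxcl12 and Ackr3, which changed by less than 2-fold, 7 of the 8 were under the FDR limit at any fold, as were 64.4% of all genes. At D21, 1 of the 8 was called induced, Ccr7, against 4.13% of 15266 genes, and 0 were repressed, against 1.16%. Leaving out 1 library moved that count to between 0 and 3, and with replicate numbers blocked the 1 member called was Cxcl14 in place of Ccr7. The tested members had a median log2 fold change of -0.02, 1.34 and 0.65 on the 3 days in turn, and all genes one of -0.01, 0.02 and -0.01.

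EAM hearts lay wholly above control hearts for 1 of the 8 members at D10, for 6 at D15 and for 4 at D21, where 4.41%, 34.6% and 17.8% of all genes did so. They lay wholly below for 0 members at D10 and for 1 on each later day, with 3.75%, 35.9% and 18.7% of all genes. The single member below was Ackr3 on both days.

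**Figure D2:**
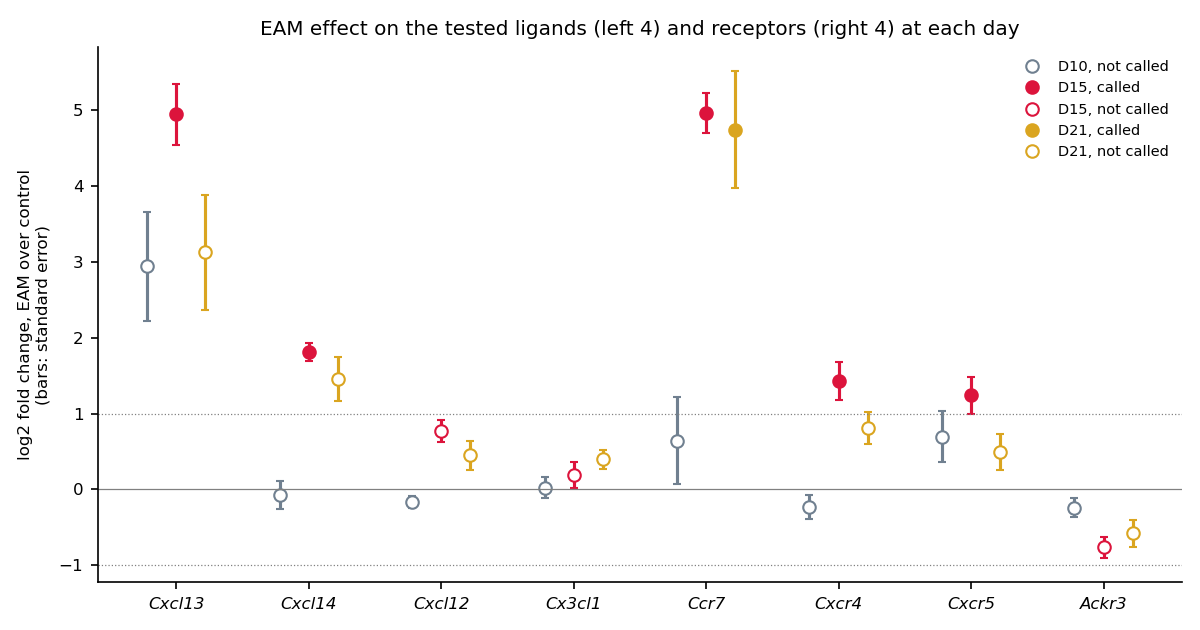
Log2 fold change of EAM over control hearts with its standard error for the 8 tested members at D10 (grey), D15 (red) and D21 (yellow), with filled points for called values and dotted lines at a 2-fold change. Cxcl13 and Ccr7 reached 4.94 and 4.95 at D15, and Ackr3 was the single member under 0 on that day.

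Cxcl13 (chr5:95956951-95961068, plus strand), the B-cell follicle chemokine, was the member that stood apart earliest. At D10 the 4 EAM hearts held 33.9, 7.65, 7.96 and 4.43 CPM and the control hearts 2.05, 1.84, 2.58 and 0.463. Every EAM heart was above every control heart, and replicate 1 was more than 4 times as high as the other 3 EAM hearts. The log2 fold change was 2.94 (SE 0.72), with an adjusted p of 0.328 by edgeR's quasi-likelihood test. DESeq2 (adjusted p = 0.00175) and the quasi-likelihood test against all 12 control hearts (adjusted p = 9.83e-04) called it, and without EAM replicate 1 the log2 fold change was 1.91. That heart also held 2538 CPM of 8 summed monocyte and macrophage genes, against 679 to 1291 in the other 3 EAM hearts, and 56.6 CPM of 6 summed mesothelium and epicardium genes, against 22.6 to 26.3. The mesothelium genes were at 8.90 to 13.6 CPM in D10 controls, and 5 of the 6 lay wholly above controls, where 4.41% of all genes did, with a median log2 fold change of 3.65 and 0 called. Of these genes 3 passed the filter on low counts through EAM hearts alone. The part of either group of cells in the Cxcl13 level was not tested.

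At D15 Cxcl13 was at 43.2, 64.4, 58.7 and 36.6 CPM in EAM hearts and at 2.45, 1.12, 2.69 and 0.353 CPM in control hearts. The groups were far apart, with a log2 fold change of 4.94 (SE 0.40, adjusted p = 5.44e-06 by edgeR's quasi-likelihood test). At D21 the EAM hearts spread from 36.4, 9.64 and 25.4 CPM down to 2.27 in replicate 3, inside the control range of 1.37 to 3.28. The log2 fold change at D21 was 3.12 (SE 0.76), with an adjusted p of 0.0179 by edgeR's quasi-likelihood test, and it was called without replicate 3 (3.46, adjusted p = 0.00100). The effect of EAM at D15 exceeded that at D10 by 1.97 (SE 1.02) on the log2 scale, which did not pass the test (adjusted p = 0.118 by edgeR's quasi-likelihood test). With 1 library left out this change ran from 1.65 to 2.99 and was never called. The highest value was that without D10 EAM replicate 1 (adjusted p = 0.0102 by the same test), just outside the limit.

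Cxcr5 (chr9:44511787-44561877, minus strand), the receptor of Cxcl13 on B cells and follicular helper T cells, stayed at a low level throughout. Its EAM hearts held 1.63, 1.64, 1.61 and 1.16 CPM at D10, when control hearts ran from 0.396 to 1.38. At D15 they held 1.46, 2.35, 1.52 and 1.43 CPM against 0.521, 0.767, 0.828 and 0.824 in controls, so that the groups did not overlap. The log2 fold change at D15 was 1.24 (SE 0.25, adjusted p = 0.00135 by edgeR's quasi-likelihood test), and at D21 it was 0.49 (SE 0.24, adjusted p = 0.137). Against all 12 control hearts the D15 value was 0.98, under the fold limit.

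Within a heart, the ratio of Cxcl13 to Cxcr5 per kilobase ran from 74.4 to 112 in EAM hearts of D15 and from 1.24 to 13.6 in their controls. D15 EAM replicate 2 held the highest level of Cxcr5, Cxcl13 and Cxcr4 of its group. The same heart had the highest summed level of 8 B-cell genes (36.5 CPM, against 9.70 to 25.5 in the other 3 hearts) and of 7 thymus genes (4.90 CPM, against 0.675 to 1.04). Their part in these values was not tested. Without that heart Cxcr5 was still called at D15 (log2 fold change 1.04, adjusted p = 0.00207 by edgeR's quasi-likelihood test), and so was Cxcr4 (1.16, adjusted p = 2.12e-04).

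Ccr7 (chr11:99144196-99155077, minus strand), the homing receptor of naive T cells and mature dendritic cells, was the single member called at D15 and D21. At D10 it was at 2.08, 0.566, 0.612 and 0.264 CPM in EAM hearts and 0.685, 0.563, 0.449 and 0.595 CPM in controls. Only EAM replicate 1 was outside the control range on the high side, and without that heart the log2 fold change turned from 0.64 to -0.27. At D15 the EAM hearts held 7.70, 5.25, 4.73 and 6.29 CPM and the controls 0.156, 0.177, 0.259 and 0.177, from 3 to 5 reads each. The log2 fold change was 4.95 (SE 0.26, adjusted p = 3.59e-07 by edgeR's quasi-likelihood test). Ccr7 passed the filter on low counts that day through EAM hearts alone, so its call follows in part from that filter. By the same test the EAM effect at D15 exceeded that at D10 by 4.26 (SE 0.92, adjusted p = 0.00233). Without D10 EAM replicate 1 this change was 5.17 (adjusted p = 1.63e-04). The control mean went from 0.573 CPM at D10 to 0.192 CPM at D15 and enters this change too.

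At D21 Ccr7 was at 7.93, 5.39, 1.14 and 11.0 CPM in EAM hearts and at 0.305, 0.0960, 0.438 and 0.102 CPM in controls. The groups did not overlap, and replicate 3 was again the lowest EAM heart. The controls held 2 to 10 reads and the EAM hearts 17 to 200, so EAM hearts alone were enough to pass the filter on low counts. The log2 fold change was 4.74 (SE 0.77, adjusted p = 0.00644 by edgeR's quasi-likelihood test). When replicate numbers entered the fit as a block it was 4.46 and the call was lost (adjusted p = 0.0134). Leaving out any 1 control heart, or EAM replicate 1 or 2, also ended the call, with values from 4.46 to 5.21, while it held without EAM replicate 3 (5.06, adjusted p = 3.53e-04) or 4 (4.33).

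The ligands of Ccr7 had few counted reads. Ccl19, made in lymphoid tissue by fibroblastic reticular cells, had 55 reads in D15 EAM replicate 1, 3 in D10 EAM replicate 3, 2 in D21 EAM replicate 3 and 1 in D15 EAM replicate 3, and 0 in the other 20 hearts. Its identical copy Ccl19-ps3 had 64 reads, all in EAM hearts. Taken as 1 sequence, they had 6, 0, 4 and 4 reads in D10 EAM hearts, 78, 0, 13 and 4 at D15, and 14, 0, 2 and 0 at D21. Reads were thus present in 8 of 12 EAM hearts and in 0 of 12 control hearts, and 78 of the 125 reads were in 1 heart. A further copy, Gm12407, which was 99.4% identical, had 1 read in each of 6 control hearts and 5 reads in EAM hearts, so that over all copies 9 of 12 EAM hearts and 6 of 12 control hearts had a read.

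Ccl21a, made by lymphatic endothelium and high endothelial venules, had 8 reads in all, 5 in control hearts and 3 in EAM hearts, and never more than 2 in a heart. Its copy Gm10591 had 220 reads in D10 control replicate 2 and at most 3 in any other heart. Too few reads were present for a test of Ccl19, Ccl21a or these copies, and no fold change is given for them. Of the markers of the lymphatic endothelium that makes Ccl21, Prox1 was repressed at D15 (log2 fold change -1.41, SE 0.19, adjusted p = 1.25e-04 by edgeR's quasi-likelihood test), and it was the single one called of the 5 tested, where 12.9% of all genes were repressed. Their median log2 fold change was -0.42, with Flt4 at 0.09 and Lyve1 at 0.27, neither past the test, while all 5 summed to 121 to 150 CPM in EAM hearts of D15 and 213 to 234 CPM in their controls. Which cells of the myocardium gave the reads of Prox1 was not tested.

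**Figure D3:**
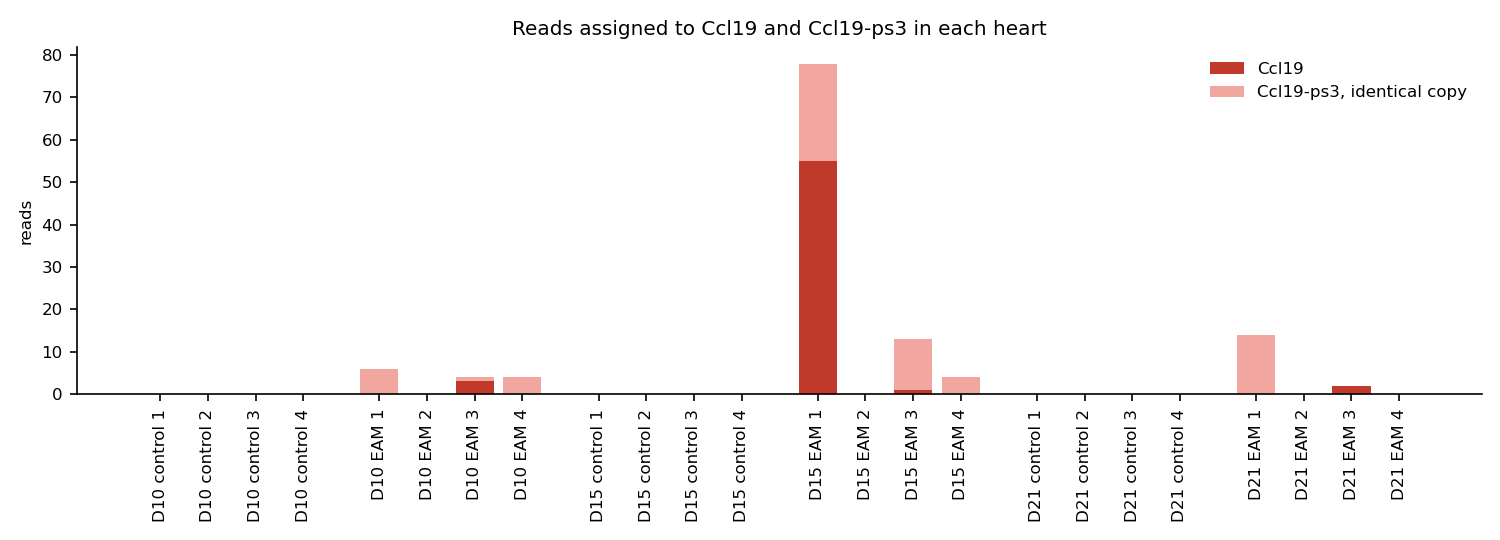
Reads assigned to Ccl19 (dark) and to its identical copy Ccl19-ps3 (light), stacked for each of the 24 hearts. All 12 control hearts were at 0, and D15 EAM replicate 1 held 78 of the 125 reads.

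Cxcl12 (chr6:117168535-117181367, plus strand), the ligand of Cxcr4 and Ackr3, was the most abundant member in control hearts. At D15 it was at 605, 474, 371 and 540.1 CPM in EAM hearts and 291, 282, 303 and 321 CPM in controls. Every EAM heart was above every control heart, with a log2 fold change of 0.77 (SE 0.14, adjusted p = 9.26e-04 by edgeR's quasi-likelihood test) that stayed under a 2-fold change. At D10, with 291 to 332 CPM in EAM hearts and 311 to 357 in controls, the value was -0.16 (SE 0.08, adjusted p = 0.342), and the rise of the EAM effect from D10 to D15 was 0.88 (SE 0.21, adjusted p = 0.00326). At D21 the EAM hearts held 483, 359, 305 and 477 CPM against 349, 245, 276 and 339.6 in controls, a log2 fold change of 0.45 (SE 0.19) with an adjusted p of 0.0996 by edgeR's quasi-likelihood test.

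Its signalling receptor Cxcr4 (chr1:128588199-128592293, minus strand), which most leukocytes carry, was induced at D15. The EAM hearts of that day held 41.6, 71.9, 29.8 and 45.6 CPM and the controls 22.4, 16.2, 16.4 and 17.0. All 4 EAM hearts were higher, and the log2 fold change was 1.43 (SE 0.25, adjusted p = 5.55e-04 by edgeR's quasi-likelihood test). At D10 the EAM hearts held 13.8 to 17.8 CPM, within the control range of 14.2 to 23.97 save for the lowest, and the EAM effect rose by 1.61 (SE 0.32, adjusted p = 0.00193) from D10 to D15. At D21 they held 52.0, 30.2, 25.9 and 34.8 CPM, all above the control range of 19.3 to 22.3, with a log2 fold change of 0.81 (SE 0.21, adjusted p = 0.0221).

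Ackr3 (chr1:90203980-90216751, plus strand), an atypical receptor that takes up Cxcl12 without G-protein signalling, moved the other way. At D10 it was at 78.1 to 111 CPM in EAM hearts and 108 to 131 in controls, a log2 fold change of -0.24 (SE 0.12, adjusted p = 0.351 by edgeR's quasi-likelihood test). At D15 it was at 59.99, 49.3, 74.3 and 55.4 CPM in EAM hearts and at 97.2, 86.4, 111 and 121 CPM in controls. The groups did not overlap, and the log2 fold change was -0.76 (SE 0.14, adjusted p = 8.57e-04 by edgeR's quasi-likelihood test), under a 2-fold change. At D21 the EAM hearts held 60.02, 85.3, 78.3 and 45.0 CPM, all below the control range of 94.1 to 108, with a log2 fold change of -0.58 (SE 0.18) and an adjusted p of 0.0369.

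The ratio of Cxcr4 to Ackr3 per kilobase within a heart summarises this axis and was compared by its range. It lay between 0.244 and 0.430 in all 12 control hearts and between 0.230 and 0.379 in D10 EAM hearts. In D15 EAM hearts it was 1.28, 2.70, 0.743 and 1.52, and in D21 EAM hearts 1.61, 0.656, 0.613 and 1.43. Every EAM heart of these days exceeded every control heart. This follows from Cxcr4 lying wholly above and Ackr3 wholly below the controls, and is no further result. The ratio of Cxcl12 to Ackr3 was 2.04 to 4.13 in EAM hearts of D15 and 1.09 to 1.34 in their controls. It follows in the same way, since Cxcl12 lay wholly above and Ackr3 wholly below controls on that day. The ratio of Cxcl12 to Cxcr4 overlapped between the groups on all 3 days.

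Genes of the cells that could carry these transcripts moved at the same time, on a day when 12.9% of all genes were repressed and 18.1% induced. Of 6 endothelial genes Cldn5 and Kdr were repressed at D15 and the median log2 fold change was -0.79. All 6 summed to 660.0 to 713 CPM in EAM hearts of D15 and 985 to 1294 CPM in controls. Of 6 mural-cell genes 3 were repressed, with a median of -1.04, and of 6 cardiomyocyte genes 3, with a median of -1.35. Of 8 monocyte and macrophage genes all 8 were induced at D15, with a median of 3.27, as were all 6 neutrophil genes, with a median of 3.93, and 2 of 3 tested plasma-cell genes. The 5 plasma-cell genes summed to 113, 156, 68.0 and 110.1 CPM in D15 EAM replicates 1 to 4 and to 16.2 to 22.3 in controls. Fibroblast genes, also a source of Cxcl12, are given with Cxcl14. The part of these shifts in the values of Ackr3, Cxcr4 and Cxcl12 was not tested.

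**Figure D4:**
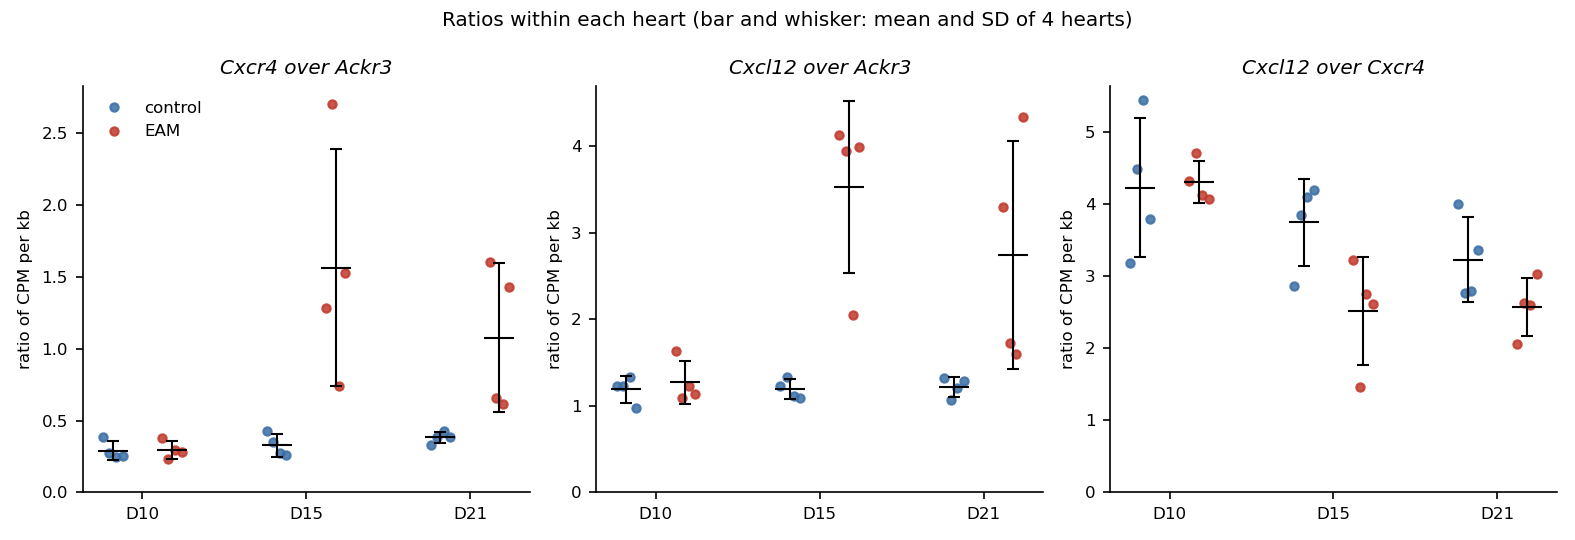
Ratios of CPM per kilobase within each heart for Cxcr4 over Ackr3, Cxcl12 over Ackr3 and Cxcl12 over Cxcr4 (linear axes from 0), with control hearts in blue, EAM hearts in red and the mean and SD of 4 hearts in black. The first ratio was 0.743 to 2.70 in EAM hearts of D15 and 0.260 to 0.428 in their controls.

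Cxcl14 (chr13:56288643-56296551, minus strand) was at 131, 102, 104 and 128 CPM in D15 EAM hearts and 30.4, 31.8, 38.0 and 36.2 CPM in D15 controls. The hearts of each group lay close together, and the log2 fold change of 1.81 had the smallest standard error of the called members (0.11, adjusted p = 1.10e-06 by edgeR's quasi-likelihood test). At D10 EAM hearts (58.7, 62.3, 70.3 and 54.2 CPM) lay within the control range of 40.7 to 78.8. The EAM effect rose by 1.83 (SE 0.31, adjusted p = 0.00171) from D10 to D15. Between these days the EAM mean went from 61.4 to 116 CPM and the control mean from 64.0 to 34.1 CPM, so both enter this change.

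The control level of Cxcl14 varied between days, at 64.0 ± 16.3 CPM (SD, n = 4) at D10, 34.1 ± 3.59 at D15 and 32.9 ± 4.68 at D21. In a fit of all 24 hearts the log2 difference from D10 controls was -0.91 (SE 0.22, adjusted p = 0.130 by edgeR's quasi-likelihood test) at D15 and -0.96 (SE 0.22, adjusted p = 0.0346) at D21, neither of them called. No other member differed between D10 controls and those of D15 or D21 at an adjusted p under 0.05. In either comparison 0 of 8 members were called, while 0.0919% and 0.214% of 16318 genes were. D21 controls were not tested against D15 controls. Marker lists shifted between the same control hearts, with medians against D10 of 3.87 at D15 and 3.37 at D21 for mesothelium and -1.86 and -1.83 for neutrophil genes, 0 of 6 called in each. The part of these cells in the control level of Cxcl14 was not tested.

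At D21 Cxcl14 was at 69.1, 88.5, 54.2 and 142 CPM in EAM hearts and 34.1, 31.8, 27.3 and 38.5 CPM in controls, with no overlap. The log2 fold change was 1.46 (SE 0.29), with an adjusted p of 0.01001 by edgeR's quasi-likelihood test that lay just outside the limit. Summed levels of 6 fibroblast genes were 3386 to 6234 CPM in EAM hearts of D15 and 2198 to 2634 in their controls, and 2827 to 4929.9 CPM in EAM hearts of D21 and 2437 to 3139.9 in their controls. Of the 6, 1 was induced and 1 repressed at D15, near the 18.1% and 12.9% of all genes, with a median of 0.16. The 5 adipocyte genes summed to 0.221 to 7.24 CPM in EAM hearts of D21 and 18.1 to 47.5 in their controls, with a median log2 fold change of -3.92 and 1 of 4 tested called repressed, where 1.16% of all genes were. The part of either group of cells in the Cxcl14 level was not tested. A fit with replicate numbers blocked called Cxcl14 at D21 (1.37, adjusted p = 0.00647), as did the fit without EAM replicate 3 (1.61, adjusted p = 0.00135).

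Cx3cl1 (chr8:94772009-94782427, plus strand), the membrane-bound chemokine of activated endothelium, varied little. Its EAM hearts held 16.2 to 21.5 CPM at D10, 17.3 to 29.8 at D15 and 22.8 to 31.4 at D21, against 15.7 to 22.4, 18.3 to 22.0 and 18.8 to 22.4 in controls. Only at D21 did the groups not overlap, with a log2 fold change of 0.40 (SE 0.13, adjusted p = 0.0414 by edgeR's quasi-likelihood test). Its receptor Cx3cr1, carried by resident macrophages and patrolling monocytes, gave 0.27 (SE 0.28) at D15 and 0.41 (SE 0.29) at D21, neither past the test. Adam17, a metalloproteinase that sheds Cx3cl1, was induced at D15 (1.23, SE 0.10, adjusted p = 4.83e-06 by edgeR's quasi-likelihood test).

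Changes of the EAM effect between days were tested in a fit of all 24 hearts. From D10 to D15 it rose for 3 of 8 members, Ccr7, Cxcl14 and Cxcr4, where 5.38% of 16318 genes rose, and fell for none, where 7.35% fell. From D15 to D21, 0 of 8 members were called, against 3.66% of genes in either direction. The D15 to D21 differences ran from -1.82 for Cxcl13 to 0.22 for Cx3cl1 and were under 0 for 6 of the 8, with unadjusted p of at least 0.0669. These comparisons share their D15 hearts, and control levels that differ between days enter them, as for Ccr7 and Cxcl14.

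Of 22 partner genes (other receptors and scavengers, enzymes and signalling proteins of chemokine-guided migration), 12 were induced and 1 repressed of 19 tested at D15, where 18.1% and 12.9% of all genes were. At D21, 5 were induced and 0 repressed of 17, where 4.13% and 1.16% of all genes were, and at D10 0 of 17, as were 0% of all genes. Ccr6, 1 of the 12, passed the filter on low counts at D15 through EAM hearts alone. The median log2 fold change of the tested partners was 0.48, 1.82 and 0.78 on the 3 days in turn. The partners were chosen with earlier results of these data known, so the shares beside them are no test of the list. Ch25h and Cyp7b1, which make and process the oxysterol ligands of Gpr183, were at 4.96 (SE 0.29) and 4.37 (SE 0.18) at D15, while Gpr183, a guidance receptor of B cells and dendritic cells, was at 1.51 (SE 0.25). Dock2, which activates Rac during lymphocyte migration, was at 3.65 (SE 0.12) and Cd74, the invariant chain, at 3.24 (SE 0.20). Ccrl2, an atypical chemokine-binding receptor, was at 1.82 (SE 0.13).

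Ackr4, the scavenger of Ccl19 and Ccl21, was the single repressed partner. It was at 1.71 ± 0.408 CPM (SD, n = 4) in D15 EAM hearts and 5.67 ± 1.58 in D15 controls, a log2 fold change of -1.70 (SE 0.25, adjusted p = 2.11e-04 by edgeR's quasi-likelihood test). With Ackr3 it was 1 of 2 scavenging receptors that were lower at D15. Ackr1 was induced on that day (2.52, adjusted p = 4.53e-05 by edgeR's quasi-likelihood test) and Ackr2 was at 0.06 (adjusted p = 0.744). At D10 and D21 Ackr4 was at -0.93 and -0.84 and did not pass the test.

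Of 18 genes of lymphoid tissue formation and homing, 12 were induced of 14 tested at D15, 3 of 12 at D21 and 0 of 11 at D10, where 18.1%, 4.13% and 0% of all genes were, and none was repressed. The median log2 fold change was 0.55, 2.52 and 1.36 at the 3 days. This list was chosen with earlier results of these data known, so the shares beside it are no test of it. Ltb, the membrane anchor of lymphotoxin, was at 38.1 ± 2.35 CPM (SD, n = 4) in D15 EAM hearts and 1.43 ± 0.381 in D15 controls (4.76, SE 0.15, adjusted p = 1.90e-08 by edgeR's quasi-likelihood test). Its receptor Ltbr was at 0.89 (SE 0.06, adjusted p = 1.55e-06), under a 2-fold change. The kinase Map3k14 (1.41) and the subunits Nfkb2 (1.14) and Relb (1.11) of the noncanonical NF-κB pathway that Ltbr activates were all induced at D15, and none of the 3 passed the test at D21.

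Il7r (5.002, SE 0.37), the receptor of naive and memory lymphocytes for IL-7, was also induced at D15, as was Tnfrsf11a (2.28, SE 0.11). Its ligand Tnfsf11, known as RANKL, had 1495 reads in D15 EAM hearts and 1 in D15 controls, a ratio of 1060 with a 95% exact counting interval of 189.9 to 41879. That interval pools the reads of each group and leaves out the spread between hearts. Tnfsf11, Lta and Fut7 passed the filter on low counts through EAM hearts alone, so their calls follow in part from that filter.

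**Figure D5:**
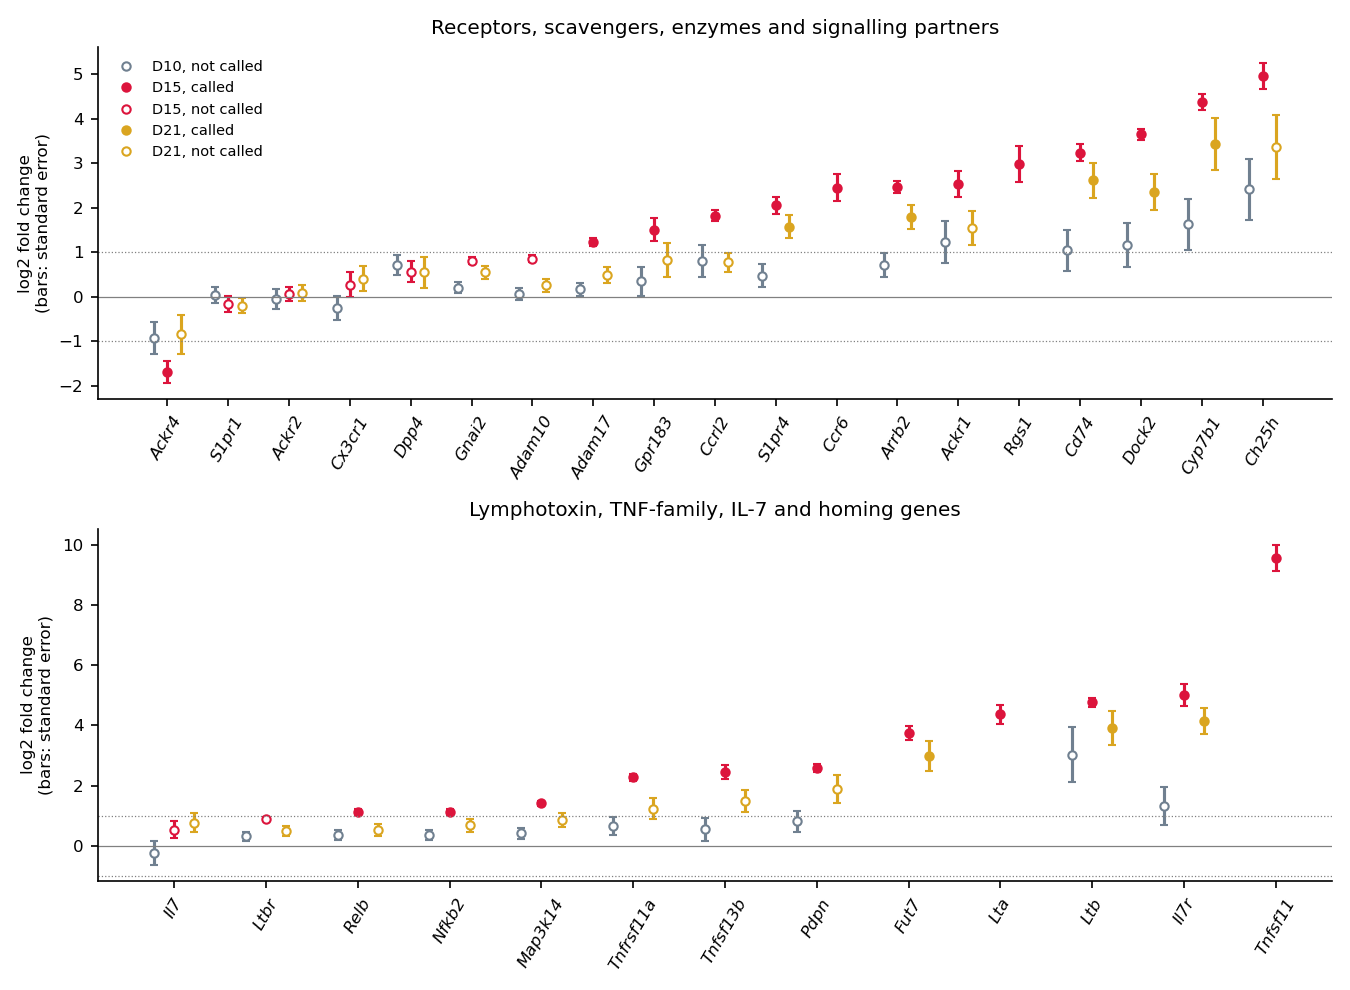
Log2 fold change of EAM over control with its standard error at D10 (grey), D15 (red) and D21 (yellow) for tested partner genes (top) and most tested genes of lymphoid tissue formation and homing (bottom), with filled points for called values. At D15 Ch25h reached 4.96 and Ackr4 was at -1.70 in the upper plot, and Ltb reached 4.76 in the lower one.

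Markers of the lymphocytes that read these chemokines were measured beside them, with 18.1% of all genes induced at D15 and 4.13% at D21 as the background. All 8 T-cell genes were induced at D15 and 7 at D21, and they summed to 59.1 to 83.2 CPM in EAM hearts of D15 and 3.003 to 4.92 CPM in their controls. Of 8 B-cell genes 6 were tested at D15 and Cd22, Cd79b and Fcrla were induced, while the defining marker Cd79a did not pass the test and Ms4a1 and Pax5 had too few reads. Of 6 follicular helper T-cell genes 3 of 5 tested were induced at D15, Icos, Pdcd1 and Sh2d1a, and Bcl6 was at 0.05 (adjusted p = 0.715 by edgeR's quasi-likelihood test). Cd2 and Cd8a among the T-cell genes, 3 of the 6 tested B-cell genes with Cd22 and Fcrla among them, and Pdcd1 and Sh2d1a passed the filter at D15 through EAM hearts alone, so their calls follow in part from that filter.

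Markers of follicular dendritic cells and high endothelial venules were low in all groups. Their 6 genes summed to 1.21 to 2.87 CPM in EAM hearts of D15 and 1.65 to 3.23 CPM in their controls, and Cr2, Madcam1, Glycam1 and Chst4 did not reach the filter on low counts at any day. None of these 6 genes was called at D15. At D21 they summed to 0.331 to 1.92 CPM in EAM hearts and 2.25 to 3.06 CPM in controls, and Fcamr, an Fc receptor, had 0 reads in EAM hearts and 134 in controls, at least 9.45-fold lower against a floor of 3 reads per library. It passed the filter on low counts through control hearts alone, so no test is given. Of 9 dendritic cell genes 6 were induced at D15, and 3 of the 9, Flt3, Ccl17 and Ccl22, passed the filter through EAM hearts alone. In EAM hearts the summed T-cell level followed the order of hearts seen for Ccr7. It was 37.2 CPM in D10 replicate 1 against 5.22 to 13.4 in the other 3 hearts, and 20.8 CPM in D21 replicate 3 against 46.2 to 82.7. The part of cell numbers in the member values was not tested.

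The genes most like each member were taken by the Pearson correlation of log2(CPM + 1) over 24 hearts among 14214 other genes, as a description, since hearts of a group share their treatment and day. Ccr7 was most like Tnfrsf4, Cd7 and Tigit (r = 0.985, 0.983 and 0.982), and Cxcl13 most like Sh2b2, Ccl4 and Bst1 (0.973, 0.972 and 0.970). For Cxcl14 they were Bmper, C1ra and Tmem176a (0.956, 0.932 and 0.931), for Cxcl12 Rab7b, Swap70 and Axl (0.928, 0.927 and 0.923), for Cxcr4 Ppic, Sgsh and Mfap5 (0.967, 0.960 and 0.956), and for Ackr3 Rhobtb3, Cep85 and Gpcpd1 (0.961, 0.955 and 0.951). Cx3cl1 (Pea15a, Lum and Phlda3, 0.800 to 0.782) and Cxcr5 (Ing2, Muc1 and Slc7a6os, 0.822 to 0.805) had no gene as close.

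After subtraction of the 6 group means, which leaves the differences between hearts of a group, the leading genes were others for most members. Ccr7 was then most like Ctla4, Tbx21 and Chl1 (r = 0.952, 0.948 and 0.941), Cxcl13 most like Eps8, Zfp53 and Hcst (0.942, 0.928 and 0.914), and Ackr3 most like Gpt2, Fabp3-ps1 and Tmem204 (0.913, 0.909 and 0.908). Cxcr4 was most like Ppic, Igkc and Fabp5 (0.909, 0.894 and 0.887), Cxcl14 most like Cp, Lbp and Bmper (0.874, 0.863 and 0.858), and Cxcl12 most like Trerf1, Rab7b and Olfml3 (0.866, 0.860 and 0.845). Cx3cl1 (Gpr153, Kctd17 and Cd72, 0.794 to 0.774) and Cxcr5 (Fam76b, Nt5dc1 and Cdk2, 0.780 to 0.725) again had the lowest values. Ppic led for Cxcr4 both ways, and Bmper and Rab7b were among the 3 for Cxcl14 and Cxcl12 both ways.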

How the data were processed

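RNA from 24 hearts was sequenced by the authors as 75 bp read pairs. Per the labels and the study's methods, the authors aligned reads to GRCm38 with HISAT2 2.0.4, removed duplicates with Picard and deposited unnormalized counts per Ensembl release 69 gene from featureCounts, with reads at more than 1 place set aside. Counts of samples and of the joint table differed in 0 cells, and 0 columns were left unmapped.

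Groups and replicate numbers came from the sample labels. Nothing in them says what a number marks. At D21 deviations of same-numbered EAM and control hearts correlated over 0.1 in all 4 pairs (0.101 to 0.307), at D10 in 2 and at D15 in 0 of 4. The 2 at D10 stood at 0.365 and 0.407, above any at D21. The main tests took hearts as unpaired on every day, and a fit with the number as a block was an alternative.

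Counts were tested in R 4.3.3 with edgeR 4.0.16 (quasi-likelihood test, TMM, at least 10 reads in at least 4 hearts, FDR under 0.01 and 2-fold). Changes between days and between control hearts were contrasts in a fit of all 24 hearts. DESeq2 1.42.0, limma 3.58.1 and other choices were alternatives. The test was checked on simulated data. The newer form of the quasi-likelihood test was added after seeing the data. The members and gene lists were chosen with earlier results of these data known. P-values measure the spread between these samples.

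Named are the 10 members, the called partner and organiser genes with the 4 largest and 4 smallest D15 log2 fold changes of each list, Cx3cr1, Ackr4, Ltb and Ltbr, and the 3 genes most correlated with each member. A gene that this rule names and 1 further marker are not reported here. Ackr1, Ackr2, Ccr6, Lta, Fut7 and marker genes were named after their values were seen. Exon lengths and positions are of GENCODE M21, and sequences of M21 transcripts and RefSeq promoters. Where a library holds 0 reads of a gene, up to 3 are allowed for, or 0.120 to 0.190 CPM, and floors and intervals cover counting error only.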

Additional observations from a re-analysis of the deposited data

Results flagged for a closer look

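In 55 groups of 4 hearts with any spread, 8 members' groups had a heart that stood apart from the other 3 by more than Dixon's critical value at 95%, where chance flags about 1 group in 20. That rate does not apply where the other 3 hearts held 0 reads, as for Ccl19 at D10 and D21 and Ccl21a at D21, since any read then stands apart. Cxcl13 was at 33.9 CPM in D10 EAM replicate 1, the highest of its group. Cxcr5 was at 1.16 CPM in D10 EAM replicate 4, the lowest, and at 2.35 CPM in D15 EAM replicate 2, the highest. Cxcr4 was at 22.4 CPM in D15 control replicate 1, the highest. Ccl19 was at 0.167 CPM in D10 EAM replicate 3, 2.29 in D15 EAM replicate 1 and 0.134 in D21 EAM replicate 3, and Ccl21a at 0.0545 CPM, 1 read, in D21 EAM replicate 2, each the highest of a group otherwise at or near 0.

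The effect of EAM differed between D10 and D15 by a test of the difference itself, edgeR's quasi-likelihood test in a fit of all 24 hearts, for Ccr7 (4.26 higher on the log2 scale, adjusted p = 0.00233), Cxcl14 (1.83, adjusted p = 0.00171) and Cxcr4 (1.61, adjusted p = 0.00193). Each was higher in 4 of 4 EAM hearts than in all control hearts at D15. Control means also fell from D10 to D15 for Cxcl14 (64.0 to 34.1 CPM) and Ccr7 (0.573 to 0.192 CPM). These falls, neither of them called, enter the changes.

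Outside the tested members, Ccl19-ps3, whose sequence is held whole by Ccl19, had more than 3 reads in 6 EAM hearts and 0 in all 12 control hearts. It had 6 reads in D10 EAM replicate 1 and 4 in replicate 4, 23, 12 and 4 in D15 EAM replicates 1, 3 and 4, and 14 in D21 EAM replicate 1.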

How the results depend on the processing

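At D15 the count of called members stayed within 4 to 7 under every alternative run. Cxcr5 was lost against all 12 control hearts (0.98, adjusted p = 8.81e-04). Cxcl13, Ccr7, Cxcl14 and Cxcr4 stayed called. At D10, where the count was 0, DESeq2 and the use of all 12 control hearts gave 1, Cxcl13. At D21, where it was 1, limma-voom and a filter of at least 30 reads gave 0, RLE scaling, no filter and the newer quasi-likelihood form gave 2 (Ccr7 and Cxcl14), DESeq2, the likelihood ratio test, all 24 hearts in 1 fit and all 12 controls gave 3 (with Cxcl13), and an FDR of 0.05 with no fold limit gave 6. With that limit 5 members changed their EAM effect from D10 to D15 in place of 3, and 1, Cxcl14, differed between D21 and D10 controls in place of 0. Leaving out 1 library gave 0 to 3 called members at D21. It gave 0 without any 1 control or EAM replicate 1 or 2, 3 without EAM replicate 3 and 2 without EAM replicate 4.

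With the replicate number as a block at D21, Cxcl14 (1.37) was called and Ccr7 (4.46) was not, the count staying at 1. The block changed no other member's call at D10 or D15.

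Against all 12 controls the D10 values of Cx3cl1 (-0.0188) and Cxcl14 (0.50) changed sign. Leaving out 1 library changed the sign of values that were not called. At D10 Cxcl14 ran from -0.24 to 0.0403, Cx3cl1 from -0.0634 to 0.10 and Ccr7 from -0.27 to 0.94. Between D15 and D10 controls Cxcr4 ran from -0.16 to 0.11 and Cxcl13 from -0.40 to 0.26, and between D21 and D10 controls Cxcr5 from -0.15 to 0.36. From D10 to D15 Cx3cl1 ran from -0.00215 to 0.23, and from D15 to D21 Ccr7 from -0.60 to 0.30. The cause was not tested. Of 1132 values of members under alternatives, 1073 kept their direction and side of the limits. Depth limits Ccl19 and Ccl21a, and Ccr7 in control hearts. Library code and EAM cannot be told apart at D21.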
